A study of Mus musculus with 45 samples.

Results

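The genes described here are the secreted and membrane-bound cues that steer growing axons and the receptors that read them, followed through the differentiation of mouse embryonic stem cells (mESCs) toward sensory interneurons of the dorsal spinal cord. They were taken by symbol from the deposited table of genes called changed by its authors. Every netrin, UNC5, DCC, Slit, Robo, semaphorin, neuropilin, plexin, ephrin and Eph gene in it was taken, apart from the netrin-G genes. Those were placed in a list of effectors and co-receptors read separately below. This gave 65 of the 11220 genes in the table: 4 netrins, 1 DCC receptor, 4 UNC5 receptors, 3 Slits, 4 Robo receptors, 7 class 3 semaphorins, 13 other semaphorins, 2 neuropilins, 6 plexins, 5 ephrin-A and 3 ephrin-B ligands and 13 Eph receptors. Another 5 genes with matching symbols, Epha6, Neo1, Plxna3, Plxnb1 and Plxnb2, have no row and were not analysed here. The table was itself selected for change. Each of its rows passes the authors' own test, at a false discovery rate below 0.1, for 1 or more of 12 deposited comparisons. Counts below therefore describe the listed genes only.

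Netrins are secreted cues that attract growing axons through DCC and repel them through UNC5 receptors, and netrin-1 is known from the floor plate and from the ventricular zone of the embryonic spinal cord. Slit proteins from the midline repel axons that carry Robo1 and Robo2, while Robo3 marks commissural axons on their way to the midline. Class 3 semaphorins act through neuropilins and plexins, other semaphorins bind plexins directly, and ephrins and Eph receptors signal at contacts between cells; several of these families also pattern blood vessels, mesoderm and neural crest.

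RNA was sequenced in bulk from 45 cultures in 15 groups of 3, taken on the way from mESCs to interneurons over 9 days. From day 3 the M groups (M4, M5, M7 and M9, named by day) received 100 nM retinoic acid (RA) and 10 ng/ml BMP4 together, for 24 h in M4 and 48 h in M5, M7 and M9. The B groups (B6hr, B5, B7 and B9) received RA for 24 h and then RA with BMP4 for 24 h. The R groups (R4, R6hr, R5, R7 and R9) received RA alone, for an interval that the labels state in ways that do not match. By the sample titles RA lasted 24 h in R4, 48 h in R5 and from day 3 to day 5 in R7 and R9. The groups R6hr and B6hr were taken 6 h into the second 24 h. D3 was the stage of neuromesodermal progenitors, after basic FGF and CHIR, an activator of WNT signalling; all later groups had received both as well. D0 was the undifferentiated line, and its name and strain are not stated. M against B differs in both the length and the start of BMP4. Values are the deposited normalized levels, which carry no unit, in the order of replicates 1, 2 and 3 of a group. Changes are fitted log2 differences of level + 1 ± SE, and a gene was called changed at an adjusted p under 0.05 over all 11220 genes.

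Several libraries stood apart from the others of their group before any guidance gene was considered. Among the neuronal genes, Tubb3, a neuronal tubulin, was at 273, 5477 and 4967 in D3, and Dcx, a marker of young neurons, at 1923, 2953 and 159.9 in R7 and 1162, 129.6 and 175 in B5. D3 replicate 1 and R7 replicate 3 were low, and B5 replicate 1 was high. Pou5f1, the pluripotency factor OCT4, was at 3064, 2678 and 22336 in D0, with replicate 3 high, and Hand1, a lateral mesoderm factor, at 7.41, 133 and 259 in B6hr and 5.05, 206 and 359 in R6hr, where the libraries numbered 1 were low whatever their treatment. All 12 neuron markers of a list were in the table, and their summed level was 2726 to 9671 in M7, 55779 to 75419 in B7 and 7522 to 28978 in R7. D0, the labelled mESC stage, also held 12768 to 21591. All 10 neural progenitor markers summed to 3976 to 7745 in M5, 13717 to 26682 in B5 and 36603 to 63669.8 in R5, and 14 of 15 markers of lateral mesoderm and mesenchyme to 39182 to 49997 in M5, 13389 to 32189.8 in B5 and 5258 to 16746 in R5. In M5 over R5, 10 of those 14, 8 of 10 endothelial, 6 of 10 surface epithelium and 9 of 10 pluripotent cell markers were called higher, and all 10 progenitor and 8 of 12 neuron markers lower, against 21.0% of all genes higher and 23.3% lower. No value in the table is 0. In these bulk samples fewer cells of a type and less RNA per cell cannot be told apart, and the part of such differences in the guidance genes was not tested.

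**Figure D1:**
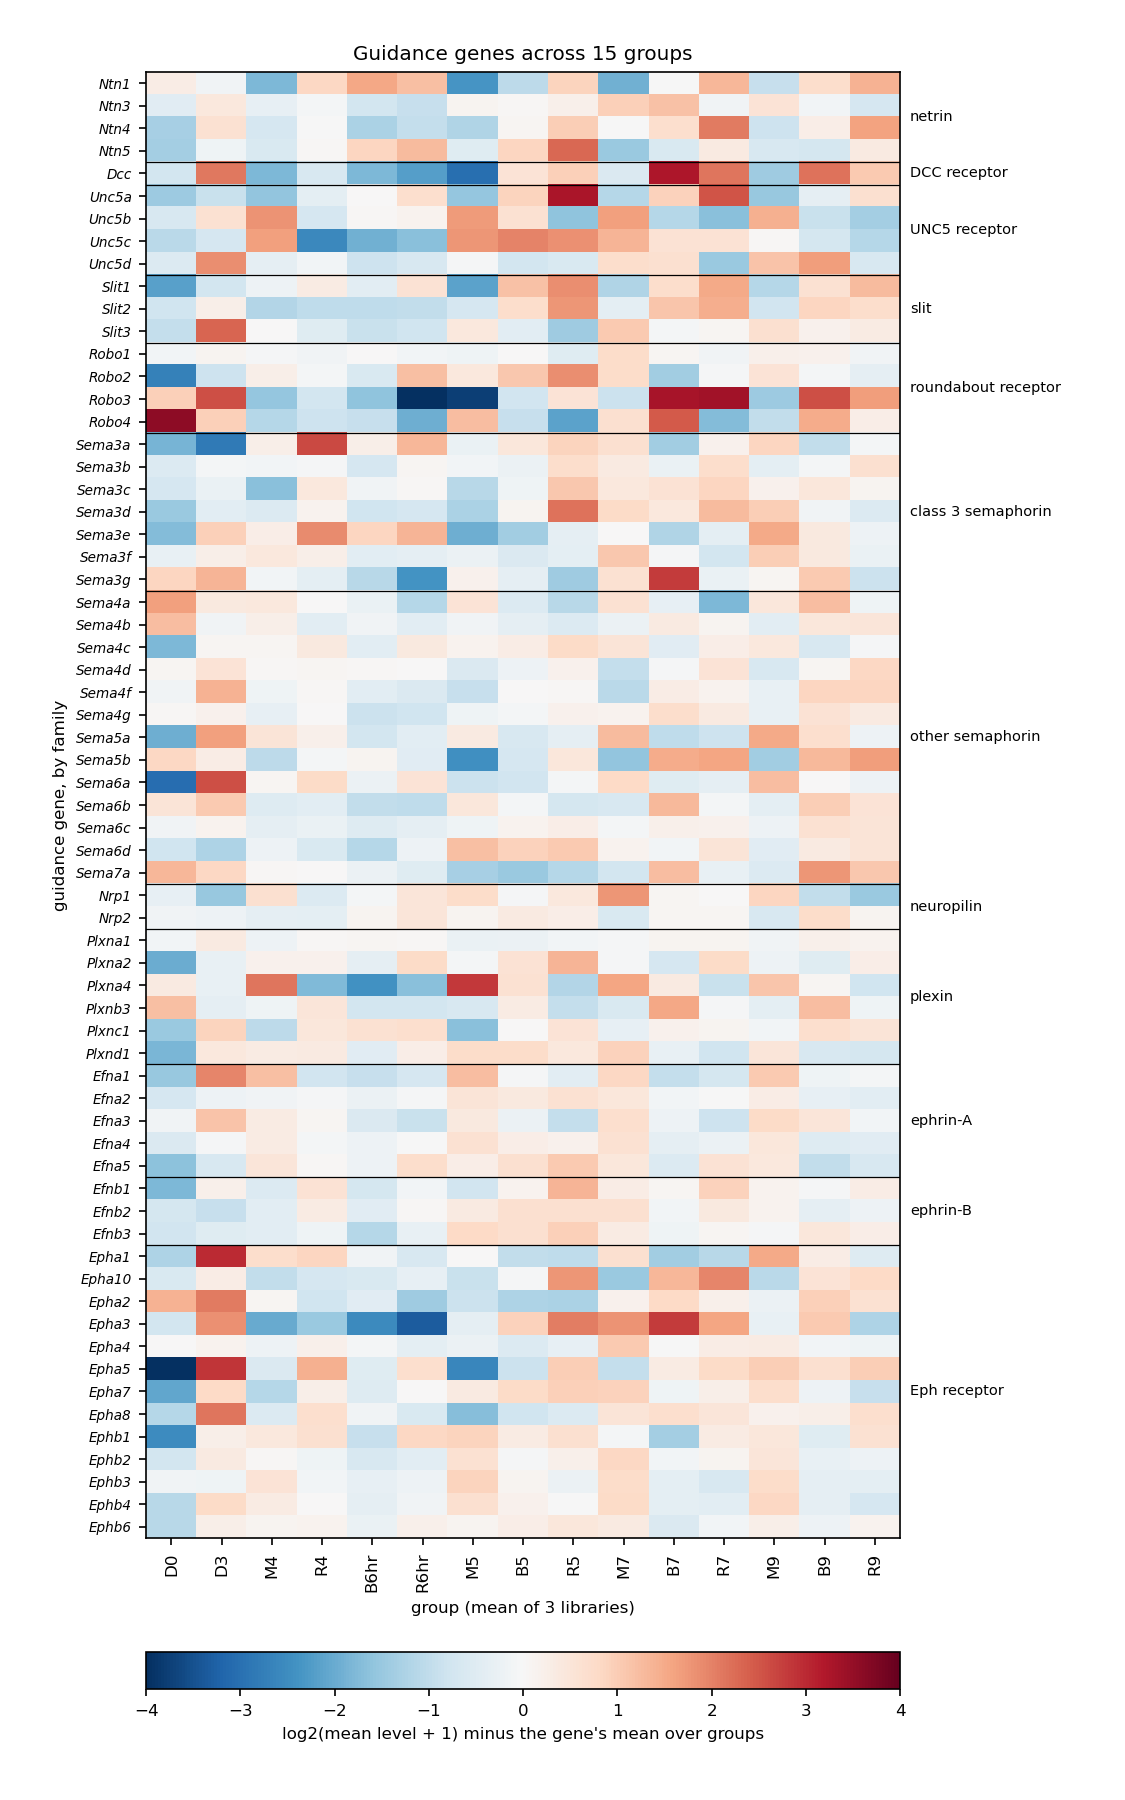
Heat map of 65 guidance genes (rows, by family) over 15 groups (columns, means of 3 libraries), with colour for log2(mean level + 1) minus the gene's own mean over groups, red above and blue below. Ntn1, Sema5b and Slit1 are blue in the M columns from day 5, and Unc5b is red in all 4 M columns.

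Set against RA alone on the same day, more guidance genes differed where BMP4 had been given together with RA than where it came a day later. In M4 over R4, 8 were higher and 10 lower (27.7% of 65). Of all genes 14.1% were called, 6.76% higher and 7.37% lower. In M5 over R5, 14 were higher and 23 lower (56.9% of 65). Of all genes 44.3% were called, 21.0% higher and 23.3% lower. In M7 over R7, 23 were higher and 13 lower (55.4% of 65). Of all genes 43.5% were called, 22.9% higher and 20.6% lower. In M9 over R9, 22 were higher and 15 lower (56.9% of 65). Of all genes 51.0% were called, 27.5% higher and 23.5% lower, near the share of guidance genes. The median log2 change of the 65 genes was -0.23 in M4 over R4, -0.19 in M5 over R5, 0.21 in M7 over R7 and 0.14 in M9 over R9. For all genes these medians were -0.02, -0.02, 0.01 and 0.04. Without M4 replicate 1, 19 guidance genes were called in M4 over R4, and without R7 replicate 3, the library with low Dcx, 34 in M7 over R7.

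With BMP4 given only for the second 24 h the numbers were smaller, as they were for all genes. In B5 over R5, 2 were higher and 7 lower (13.8% of 65). Of all genes 5.99% were called, 2.76% higher and 3.23% lower. In B7 over R7, 9 were higher and 8 lower (26.2% of 65). Of all genes 23.7% were called, 12.1% higher and 11.6% lower. In B9 over R9, 4 were higher and 2 lower (9.23% of 65). Of all genes 11.8% were called, 6.12% higher and 5.71% lower. The shares in B over R on day 7 and day 9 were near those of all genes. After quantile normalization the calls were 5 higher and 7 lower in B5 over R5 and 5 higher and 4 lower in B9 over R9. These counts depended on single libraries. B5 over R5 had 6 calls without B5 replicate 1, 5 without R5 replicate 2 or 3 and 4 without B5 replicate 2. B7 over R7 had 10 without B7 replicate 1 and 16 without R7 replicate 3. B9 over R9 had 3 without R9 replicate 2 or 3 or B9 replicate 3, and 2 without B9 replicate 2.

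The BMP4 schedules also differed from each other. M and B were set against the same R libraries above, so they are compared here directly. In M5 over B5, 11 were higher and 9 lower (30.8% of 65). Of all genes 17.8% were called, 8.57% higher and 9.23% lower. In M7 over B7, 26 were higher and 17 lower (66.2% of 65). Of all genes 41.6% were called, 21.7% higher and 19.9% lower. In M9 over B9, 18 were higher and 20 lower (58.5% of 65). Of all genes 51.5% were called, 27.8% higher and 23.7% lower, near the share of guidance genes. M5 over B5 had 10 calls without B5 replicate 3, 11 without M5 replicate 2 and 17 without B5 replicate 1.

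At 6 h after BMP4 was added, 0 guidance genes were called in B6hr over R6hr (0.0178% of all genes were called), 14 had an unadjusted p under 0.05, and the authors' deposited test also gave 0 of them at a false discovery rate under 0.05. The same 0 came from replicates 2 and 3 alone. Same-numbered libraries deviated together there. In a fit of the 6 libraries alone 10 were called, all lower, where 7.55% of all genes were called, 5.23% lower. With the replicate number as a block in that fit, 6 were higher and 24 lower, where 25.9% of all genes were called, 10.6% higher and 15.3% lower.

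Across the days, 6 guidance genes were called higher in M over R on days 4, 5, 7 and 9: Efna1, Efna4, Ephb3, Ephb4, Plxna4 and Unc5b. Called lower on all 4 days were 2, Ntn1 and Sema5b. Of all genes, 2.27% were called higher and 2.58% lower on all 4 days. The 2 lower of 65 guidance genes were near the share of all genes. In M over B, Efna1, Efna4, Ephb2, Ephb3, Ephb4 and Unc5b were higher on days 5, 7 and 9 (6 of 65, against 2.99% of all genes). Dcc, Ntn1, Sema4f, Sema5b, Slit1 and Unc5a were lower on these days (6 of 65, against 3.59% of all genes). In B over R, Sema3b was lower on all 3 days, as were 0.668% of all genes, and no guidance gene was higher on all 3. Several of these calls hung on single libraries. Efna4 was lost in M4 over R4 without M4 replicate 1 (adjusted p = 0.056), and in M5 over B5 it and Ephb2 were lost without replicate 2 or 3 of either group, Dcc without B5 replicate 1 or 3 or M5 replicate 1 or 2 (0.064 to 0.12 for these 3 genes) and Unc5b without any 1 of the 6 libraries (0.059 to 0.19). Slit1 was lost in M7 over B7 without M7 replicate 1 (0.097), and in M9 over B9 Slit1 and Unc5a were each lost without any of 5 libraries, B9 replicate 2 being the exception for Slit1 and B9 replicate 3 for Unc5a (0.052 to 0.19).

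**Figure D2:**
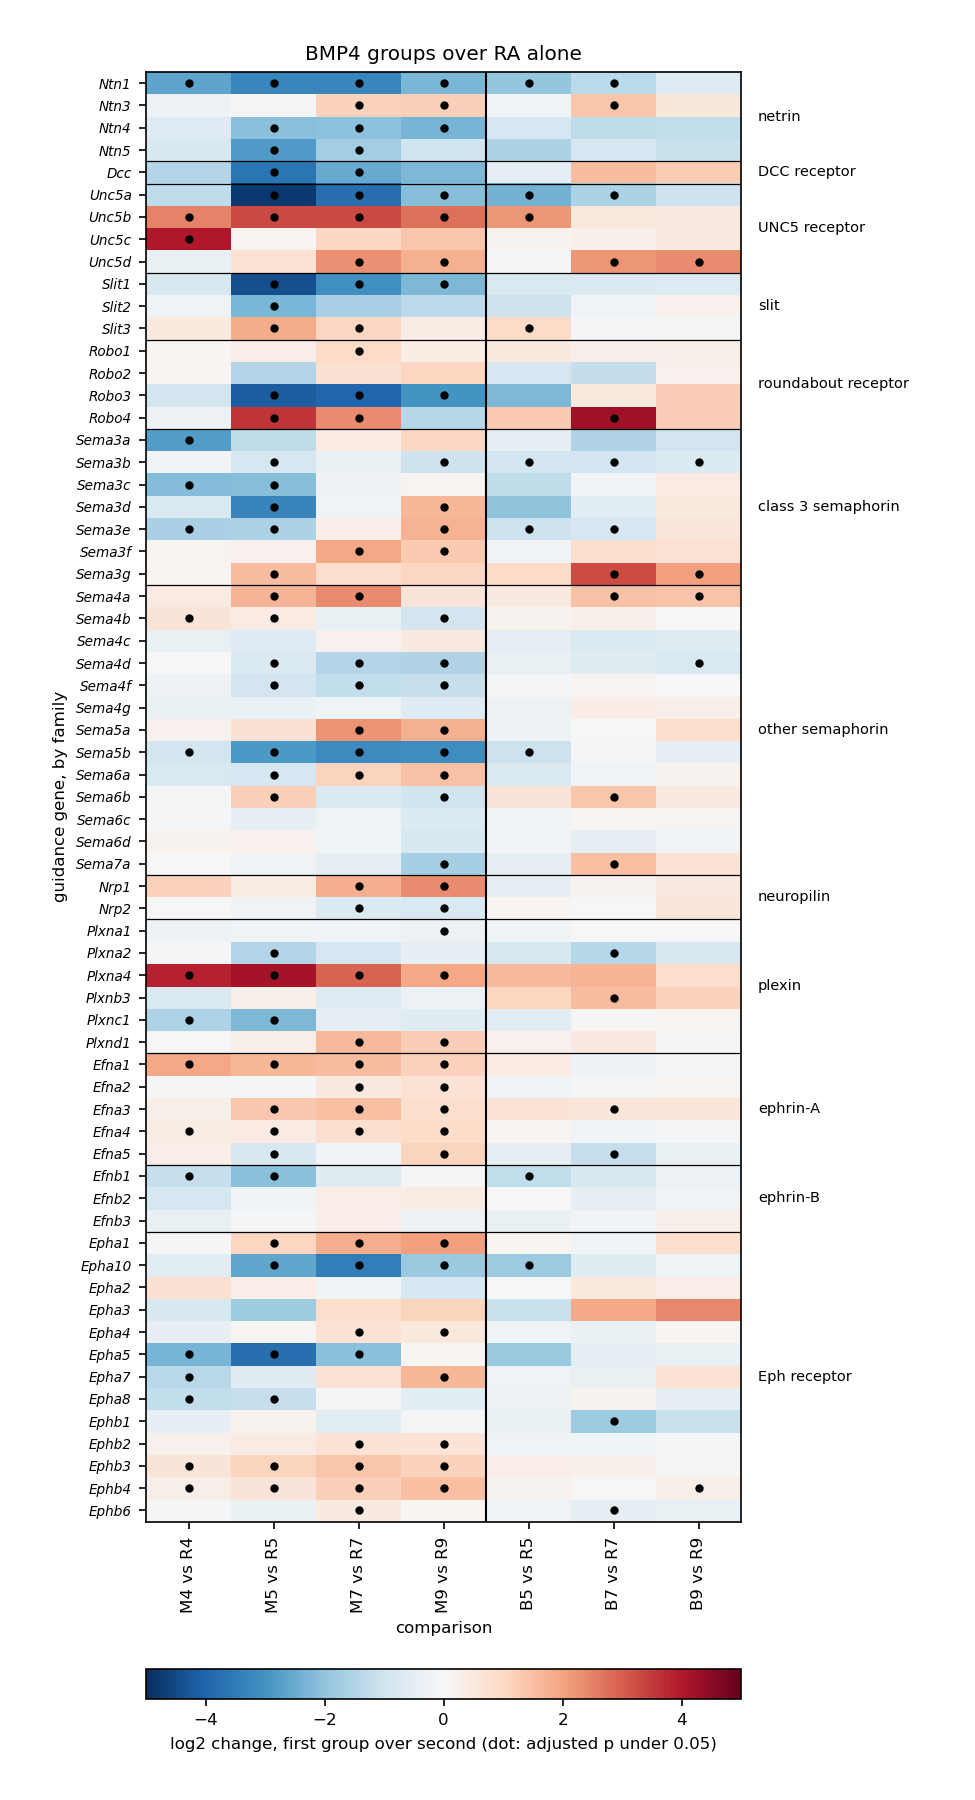
Heat map of fitted log2 changes of 65 guidance genes (rows, by family) in 4 comparisons of M over R and 3 of B over R (columns, by day), red for higher and blue for lower in the BMP4 group; a dot marks an adjusted p under 0.05. Dots stand in all 4 M columns for Ntn1 and Sema5b (blue) and for Unc5b, Plxna4, Efna1, Efna4, Ephb3 and Ephb4 (red).

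Netrin-1 was lower in M than in R on all 4 days, and lower in B than in R on days 5 and 7. Ntn1 (chr11:68209364-68400823, minus strand; coordinates of whole protein-coding genes are from GENCODE M21 on mm10) was at 338, 549 and 617 in M4, against 2806, 3739.7 and 2575 in R4. On day 5 it was at 379.8, 266 and 363 in M5 and 678, 935 and 914 in B5, against 3469.6, 3141 and 2985 in R5. Every M5 library was below every B5 library and every B5 library below every R5 library. Day 7 gave 652, 352 and 374 in M7, 2012, 1707 and 1361 in B7 and 4014, 3071 and 6027 in R7. Day 9 gave 1074, 874 and 774 in M9, 2095, 3098 and 3237 in B9 and 3953, 3508 and 6014 in R9. The M libraries did not overlap the others on any of these days, and every B9 library lay below every R9 library. The fitted change was -2.62 ± 0.32 (adjusted p = 7.2e-07) in M4 over R4, -3.26 ± 0.32 (adjusted p = 1.2e-09) in M5 over R5, -3.25 ± 0.32 (adjusted p = 9.7e-10) in M7 over R7 and -2.28 ± 0.32 (adjusted p = 6.7e-07) in M9 over R9. It was -1.94 ± 0.32 (adjusted p = 0.00029) in B5 over R5 and -1.33 ± 0.32 (adjusted p = 0.0036) in B7 over R7, while B9 over R9 did not pass (log2 change -0.66 ± 0.32, adjusted p = 0.17). Per kilobase of exon, Ntn1 was among the 6 highest guidance genes in D0, R4, R6hr, B6hr, R7 and R9, and in none of the M groups.

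Markers of cells known to make netrin-1 moved only in part with it. The floor plate list, of which 4 of 5 genes are in the table, summed to 333 to 652 in M5 and 401 to 819 in R5, 268 to 889 in M7 and 314 to 637 in R7, and 373 to 506 in M9 and 246 to 435 in R9, overlapping on day 5, 7 and 9. The neural progenitor list summed to 4317 to 9138 in M4 and 20801 to 28295 in R4, 4964 to 10535 in M7 and 30097 to 37929 in R7, and 7187 to 8003 in M9 and 19737 to 24325 in R9, without overlap. The part of these cells in the Ntn1 levels was not tested.

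Of the other netrins, Ntn4 and Ntn5 were lower and Ntn3 was higher in M on at least 1 day. Ntn4, a laminin-related netrin, was at 56.4, 70.3 and 119 in M5 and 151, 497 and 481 in R5. On day 9 it was at 81.4, 110.5 and 123 in M9 and 751, 727 and 258 in R9. It was lower on both days (log2 change -2.07 ± 0.56, adjusted p = 0.003 on day 5 and log2 change -2.32 ± 0.56, adjusted p = 0.0009 on day 9). On day 7 M7 overlapped R7 (77.3, 159 and 326 in M7 against 975, 1180.0 and 258 in R7), with R7 replicate 3 low, and the call (log2 change -2.06 ± 0.56, adjusted p = 0.003) was lost with the compared libraries alone (adjusted p = 0.075). Ntn3 on day 9 was at 284, 366 and 412 in M9 against 185, 158 and 119.6 in R9 (log2 change 1.20 ± 0.32, adjusted p = 0.0028). Ntn5, a netrin at no more than 93.1 in any library, was at 5.55, 10.7 and 15.3 in M5 and 93.1, 58.1 and 82.6 in R5 (log2 change -2.85 ± 0.53, adjusted p = 5.8e-05). Of its exon bases, 23.4% are shared with Sec1 on the opposite strand, from which its reads may not have been separated.

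**Figure D3:**
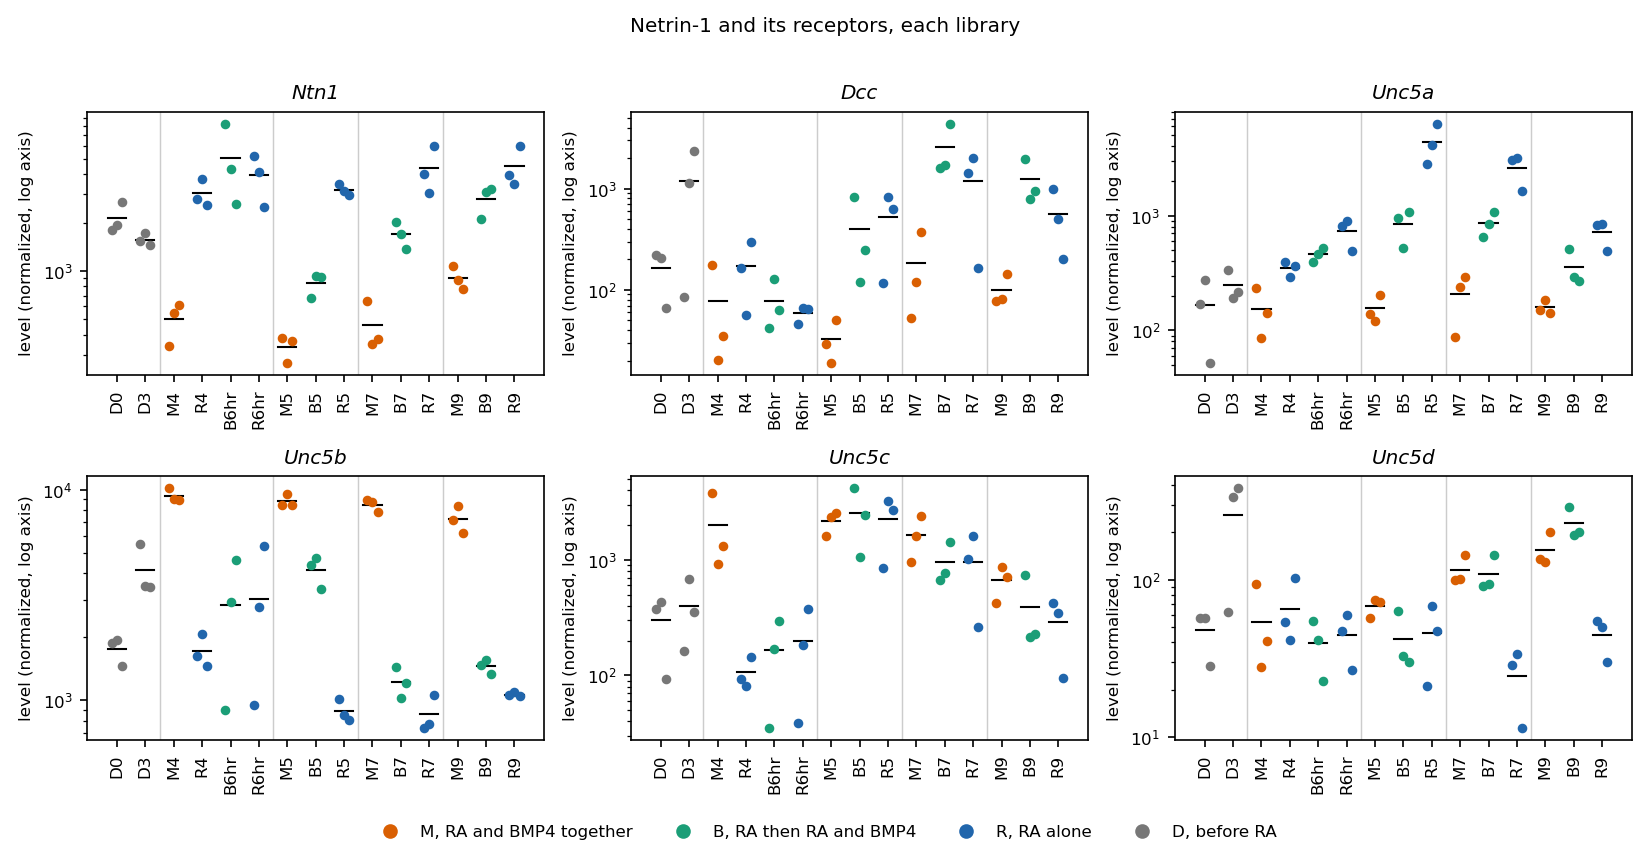
Levels of Ntn1, Dcc and the 4 UNC5 receptors in each library (points, log axis, no unit) by group, M in orange, B in green, R in blue and D in grey, with a black line at the group mean. Ntn1 is low and Unc5b high in all M libraries, while Dcc spreads widely within most groups and is highest in B7.

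The UNC5 receptors, which turn the response to netrin into repulsion, differed from one another in direction. Unc5b (chr10:60762593-60831581, minus strand) was at 10120.5, 8969 and 8939.8 in M4, against 1614, 2071 and 1448 in R4. On day 5 it was at 8476, 9535 and 8442 in M5 and 4396, 4739.9 and 3367 in B5, against 1014, 847 and 802 in R5. On day 7 it was at 8946, 8686 and 7797 in M7, against 740.0, 774 and 1064 in R7, and day 9 gave 7129, 8379.5 and 6211 in M9, against 1057, 1088 and 1041 in R9. There was no overlap on any day. It rose in M4 over R4 by 2.46 ± 0.39 (adjusted p = 3.6e-05), in M5 over R5 by 3.32 ± 0.39 (adjusted p = 3.8e-08), in M7 over R7 by 3.32 ± 0.39 (adjusted p = 3.3e-08) and in M9 over R9 by 2.76 ± 0.39 (adjusted p = 8.5e-07) on the log2 scale. B5 was also higher than R5, by 2.22 ± 0.39 (adjusted p = 0.00052), while B7, at 1443, 1028 and 1203, and B9, at 1471, 1549.5 and 1334, were far below M7 and M9. Neither passed against its R group, R7 (log2 change 0.52 ± 0.39, adjusted p = 0.35) or R9 (log2 change 0.45 ± 0.39, adjusted p = 0.49). Per kilobase of exon, Unc5b had the highest mean level of all guidance genes in M4, M5 and M7, at 1493, 1409 and 1354.

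Unc5a (chr13:54949411-55006018, plus strand), a receptor of spinal neurons, was lower in M than in R on days 5, 7 and 9 and lower in B than in R on days 5 and 7. It was at 139.9, 121 and 204 in M5 and 956, 516 and 1073 in B5, against 2798, 4103 and 6319 in R5. On day 7 it was at 88.1, 236 and 293 in M7 and 654, 850.0 and 1074 in B7, against 3021, 3162 and 1623 in R7. The 3 treatments were fully separated on both days, M lowest and R highest. The change was -4.78 ± 0.46 (adjusted p = 8.7e-10) in M5 over R5 and -3.76 ± 0.46 (adjusted p = 6.2e-08) in M7 over R7, and -2.36 ± 0.46 (adjusted p = 0.0015) in B5 over R5. In B7 over R7 it was -1.56 ± 0.46 (adjusted p = 0.014), a call that was lost without R7 replicate 1, R7 replicate 2 or B7 replicate 1 (adjusted p 0.052 to 0.069). By day 9 R9 had come down to 822, 850.0 and 486, and M9, at 152, 183 and 141, gave a change of -2.14 ± 0.46 (adjusted p = 0.00026). B9, at 513, 293 and 269, overlapped R9 and did not pass (log2 change -1.02 ± 0.46, adjusted p = 0.14). M4, at 235, 85.96 and 141, was below R4, at 394, 290.1 and 362, and did not pass either (log2 change -1.28 ± 0.46, adjusted p = 0.056).

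Unc5c (chr3:141465216-141834924, plus strand), known in cerebellar and spinal axons, differed between BMP4 and RA alone on day 4 but passed on no later day. It was at 3764, 917 and 1312 in M4, with replicate 1 highest, against 93.7, 80.7 and 145 in R4 (log2 change 3.99 ± 0.82, adjusted p = 0.00093). On day 5 the treatments overlapped, with 1597, 2325 and 2558 in M5, 4133, 1053 and 2424 in B5 and 846, 3212 and 2712 in R5. M5 over R5 did not pass (log2 change 0.12 ± 0.82, adjusted p = 0.92). Unc5d, a receptor best known in the cortex, was at 99.1, 101 and 143 in M7 and 90.6, 93.7 and 143 in B7, against 28.5, 33.6 and 11.4 in R7. On day 9 it was at 135, 129 and 201 in M9 and 290.3, 192 and 201 in B9, against 54.3, 49.98 and 29.8 in R9. Both BMP4 schedules were higher than RA alone on both days, set against the same R libraries. On day 7 the change was 2.29 ± 0.53 (adjusted p = 0.00072) in M7 and 2.21 ± 0.53 (adjusted p = 0.0038) in B7, and on day 9 it was 1.79 ± 0.53 (adjusted p = 0.0058) in M9 and 2.34 ± 0.53 (adjusted p = 0.0042) in B9.

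The promoters of the 3 UNC5 genes that parted in this way are shown because BMP signalling reaches DNA through SMAD proteins, for which the 6 letters GGCGCC are a known GC-rich binding motif. Each window holds the 250 bases before and 50 after the RefSeq gene start (GRCm38.p6), written 5′ to 3′ on the gene's strand with each GGCGCC in capitals; the letters read the same on both strands, and no other motif was searched. The Unc5b window (chr10:60831532-60831831, minus strand) holds 0 matches. That of Unc5c (chr3:141465314-141465613, plus strand) holds 1 match, starting 222 bases before the RefSeq gene start. In GENCODE, Unc5c starts further upstream, at 141465216, so this whole window and its match lie inside the GENCODE gene. That of Unc5a (chr13:54949161-54949460, plus strand) holds 1 match, starting 28 bases before the RefSeq gene start.
Unc5b: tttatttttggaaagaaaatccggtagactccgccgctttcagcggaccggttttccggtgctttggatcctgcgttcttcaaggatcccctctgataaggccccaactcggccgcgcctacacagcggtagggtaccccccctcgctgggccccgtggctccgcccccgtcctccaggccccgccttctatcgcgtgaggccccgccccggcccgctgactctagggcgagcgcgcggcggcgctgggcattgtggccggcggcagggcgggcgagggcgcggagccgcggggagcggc
Unc5c: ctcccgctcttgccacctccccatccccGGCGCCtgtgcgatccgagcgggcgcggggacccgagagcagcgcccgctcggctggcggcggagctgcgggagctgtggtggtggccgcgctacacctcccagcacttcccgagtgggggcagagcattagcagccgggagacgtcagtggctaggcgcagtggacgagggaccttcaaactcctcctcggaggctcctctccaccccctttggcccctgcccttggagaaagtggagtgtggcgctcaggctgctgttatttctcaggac
Unc5a: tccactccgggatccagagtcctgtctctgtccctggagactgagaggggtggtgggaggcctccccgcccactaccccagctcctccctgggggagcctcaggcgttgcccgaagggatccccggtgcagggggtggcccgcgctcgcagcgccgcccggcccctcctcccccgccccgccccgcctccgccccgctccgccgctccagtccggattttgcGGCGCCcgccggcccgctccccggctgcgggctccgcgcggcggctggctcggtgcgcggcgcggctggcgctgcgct
Of all 32851 promoter windows in the RefSeq table, 11.9% hold the motif, and of the 70 windows of the 55 guidance genes matched by symbol, 16 (22.9%) do. A match here is a run of letters and not a bound site.

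DCC, the receptor for attraction to netrin, spread widely between libraries of a group and was lower in M5 than in R5 and in M7 and M9 than in B7 and B9. Dcc (chr18:71253634-72351069, minus strand) was at 29.1, 18.96 and 49.9 in M5 and 821, 119 and 249 in B5, against 118, 821 and 628 in R5. On day 7 it was at 52.8, 118 and 375 in M7 and 1614, 1696 and 4379.7 in B7, against 1413, 1998 and 164 in R7. The M libraries were low, B7 replicate 3 was highest, and R7 replicate 3 fell among the M7 libraries. M5 was lower than R5 (log2 change -3.66 ± 1.01, adjusted p = 0.0038) and M7 lower than B7 (log2 change -4.09 ± 1.01, adjusted p = 0.0017). M9, at 76.7, 80.6 and 143, was lower than B9, at 1956, 781 and 953 (log2 change -3.55 ± 1.01, adjusted p = 0.0045). M7 over R7 passed narrowly (log2 change -2.53 ± 1.01, adjusted p = 0.042) and was lost without R7 replicate 1 or 2 or M7 replicate 1 or 2 (adjusted p 0.092 to 0.19). M9 over R9 did not pass (log2 change -2.26 ± 1.01, adjusted p = 0.061), with R9 at 986, 503 and 202. On day 9 the neuron list was lowest in M9 and highest in B9, as was mean Dcc. The list summed to 3891 to 6261 in M9, 23117 to 28622 in B9 and 9771 to 18472 in R9. In R5 it was lower than in R9, at 3109 to 8800, while Dcc did not pass in R9 over R5 (log2 change 0.24 ± 1.01, adjusted p = 0.87). The part of neurons in the Dcc levels was not tested.

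Among the midline repellents, Slit1 and Slit2 were lower and Slit3 higher in M5 than in R5. Slit1 (chr19:41600257-41743665, minus strand) was at 113, 95.6 and 557 in M5 and 3114, 1099 and 3344 in B5, against 2309, 4793 and 5146 in R5, and the change in M5 over R5 was -4.39 ± 0.68 (adjusted p = 4.2e-06). It was also lower in M7, at 89.8, 409 and 962, than in R7, at 3712, 4668 and 1205 (log2 change -3.06 ± 0.68, adjusted p = 0.00046). In M9 it was at 511, 457 and 559, against 3536, 3526 and 1158 in R9 (log2 change -2.26 ± 0.68, adjusted p = 0.0065). The groups did not overlap on either day. Slit2 was at 1061, 1194 and 1727 in M5, against 2694, 9551 and 9561 in R5 (log2 change -2.27 ± 0.69, adjusted p = 0.0077), its only call in 16 comparisons. Slit3 was at 1524, 1966 and 1751 in M5, against 373, 572 and 515 in R5 (log2 change 1.86 ± 0.28, adjusted p = 2.3e-06). On day 7 it was at 2289.9, 2749 and 2942 in M7, against 1194, 1013 and 1499 in B7 (log2 change 1.12 ± 0.28, adjusted p = 0.0017). Slit3 was highest of all groups in D3, at 4749, 8072 and 6941, against 681, 647 and 676 in D0.

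**Figure D4:**
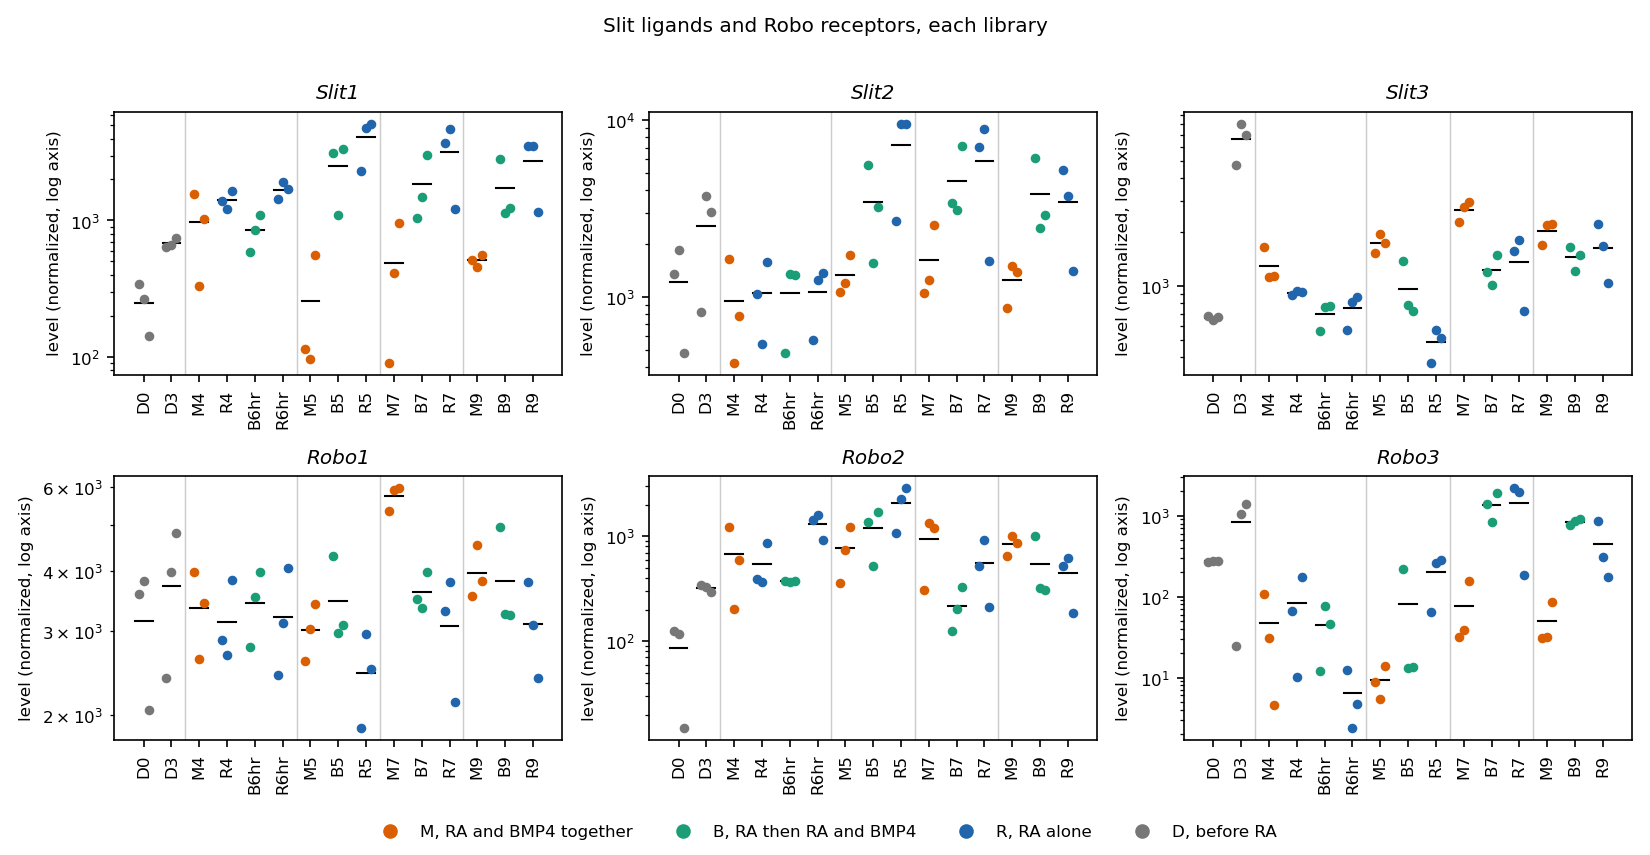
Levels of Slit1 to Slit3 and Robo1 to Robo3 in each library (points, log axis, no unit) by group, with a black line at the group mean. Slit1 and Robo3 are low in M5, M7 and M9, Robo1 lies within a narrow range apart from M7, and R7 replicate 3 is the low blue point for Slit1, Slit2 and Robo3.

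Robo1 and Robo2, the receptors for Slit, passed in 1 comparison of M with R and none of B with R between them. Robo1 was at 5352, 5924 and 5967 in M7, against 3302, 3790.1 and 2127 in R7 (log2 change 0.94 ± 0.26, adjusted p = 0.0034). M5 over R5 and M9 over R9 did not pass (log2 change 0.32 ± 0.26, adjusted p = 0.34 and log2 change 0.38 ± 0.26, adjusted p = 0.22). Robo2 was at 357, 737 and 1219.6 in M5, 1366, 525 and 1698 in B5 and 1073, 2246 and 2862 in R5, overlapping. No comparison of M or B with R passed for it. It was lower in R9, at 527, 626 and 186, than in R5 (log2 change -2.27 ± 0.71, adjusted p = 0.011), a call lost without R5 replicate 3 or R9 replicate 3 (adjusted p 0.061 and 0.089).

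Robo3 (chr9:37415669-37433246, minus strand), the receptor of commissural axons before they cross, was at 8.85, 5.48 and 13.8 in M5 and 218, 13.3 and 13.4 in B5, against 65.3, 258 and 283 in R5. On day 7 it was at 31.4, 38.9 and 158 in M7 and 1391, 835 and 1897 in B7, against 2179, 1941 and 184 in R7, and on day 9 at 30.5, 32.1 and 87.05 in M9 and 769, 853 and 900.4 in B9, against 859.9, 307 and 174 in R9. The B7 and B9 libraries were all above those of M, R7 replicate 3 lay far below R7 replicates 1 and 2, and B7 and R7 overlapped. Robo3 was lower in M5 over R5 (-4.11 ± 1.22, adjusted p = 0.0067), in M7 over B7 (-4.47 ± 1.22, adjusted p = 0.0041) and in M9 over B9 (-4.22 ± 1.22, adjusted p = 0.0051). M7 over R7 passed (log2 change -3.97 ± 1.22, adjusted p = 0.0087) but not without R7 replicate 1 (adjusted p = 0.052). M9 over R9 (log2 change -2.99 ± 1.22, adjusted p = 0.04) was lost without R9 replicate 1 or 2 or M9 replicate 1 or 2 (0.067 to 0.16). All 10 genes of a list for dI1 and dI3 interneurons are in the table and summed to 668 to 2012 in M7, 6529 to 10674 in B7 and 514 to 1639 in R7. All 10 were called higher in B7 over R7, against 12.1% of all genes. Undifferentiated D0 cells held 3045 to 5069, above every R7 library, so the summed level is not particular to these neurons. Which of the 10 genes made up the D0 sum was not tested. The part of these neurons in the Robo3 levels was not tested.

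Robo4, a receptor best known from endothelial cells, was higher in M5 than in R5 and in B7 than in R7. It was at 106, 97.4 and 68.9 in M5 and 8.87, 29.2 and 20.6 in B5, against 9.42, 11.3 and 2.37 in R5. On day 7 it was at 60.4, 34.9 and 83.2 in M7 and 177, 190.5 and 264 in B7, against 7.68, 16.3 and 7.81 in R7. M5 was the highest treatment on day 5 and B7 on day 7, without overlap. The change was 3.58 ± 0.60 (adjusted p = 1.5e-05) in M5 over R5 and 4.25 ± 0.60 (adjusted p = 1.1e-05) in B7 over R7. All 10 endothelial markers are in the table and summed to 3774 to 4446 in M5, 1796 to 2739 in B5 and 945 to 1879.6 in R5. On day 7 they summed to 1774 to 3088 in M7, 1641 to 2527 in B7 and 802 to 1386 in R7, and their part was not tested. Undifferentiated D0 cells held 460.1, 434 and 502, above all libraries of later groups.

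Sema3a (chr5:13125414-13602565, plus strand), a repellent read by neuropilin-1 and plexin-A, was far higher after the first day of RA. It was at 5116, 6706 and 10468 in R4, against 202, 96.3 and 200.4 in D3 (log2 change 5.49 ± 0.60, adjusted p = 2.1e-08). M4 held 1459, 311 and 2411, below every R4 library (log2 change -2.78 ± 0.60, adjusted p = 0.0014), a call lost with the 6 compared libraries alone (adjusted p = 0.095). Sema3a on day 9 was at 1511, 2733 and 2182 in M9, 1046, 404 and 347 in B9 and 1433, 1468 and 513 in R9, and M9 was higher than B9 (log2 change 1.98 ± 0.60, adjusted p = 0.0068). The neuropilin-2 ligand Sema3f was higher in M7, at 904, 1175 and 1032, than in R7, at 363, 368 and 141 (log2 change 1.95 ± 0.34, adjusted p = 2.7e-05). It was also higher in M9 than in R9 (log2 change 1.29 ± 0.34, adjusted p = 0.0024).

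Sema3e, which binds plexin-D1 and is known for guiding vessels, was lower in M than in R on day 5 and higher on day 9. It was at 139, 162 and 185 in M5 and 188, 228 and 293 in B5, against 617, 447 and 411 in R5, with M5 below R5 (log2 change -1.58 ± 0.27, adjusted p = 1.6e-05). By day 9 it was at 1754, 1886 and 1780.4 in M9 and 836, 828 and 784 in B9, against 540.0, 561 and 521 in R9. M was highest and R lowest, with no overlap (log2 change 1.74 ± 0.27, adjusted p = 3.5e-06 in M9 over R9). Its receptor Plxnd1 was higher in M7, at 1139.5, 2175 and 2509.8, than in R7, at 581, 608 and 583 (log2 change 1.64 ± 0.30, adjusted p = 3.9e-05). It was higher in M9, at 1625, 1365 and 1384, than in R9, at 617, 803 and 483 (log2 change 1.23 ± 0.30, adjusted p = 0.001). Sema3d, a related ligand, was lower in M5, at 141, 123 and 205, than in R5, at 736, 2701 and 1689 (log2 change -3.29 ± 0.69, adjusted p = 0.00026). Sema3b differed by less but was lower in B5, B7 and B9 than in R of the same day, at 214, 176 and 227 in B5, 225, 155 and 223 in B7 and 249.8, 217 and 216 in B9, against 352, 389 and 447 in R5, 397, 407 and 361 in R7 and 429.8, 409 and 288 in R9. The changes in B over R were -0.94 ± 0.20 (adjusted p = 0.0037), -0.96 ± 0.20 (adjusted p = 0.0011) and -0.70 ± 0.20 (adjusted p = 0.02) on days 5, 7 and 9. That of day 5 was lost with the 6 compared libraries alone (adjusted p = 0.075). That of day 9 was lost without R9 replicate 1 or 2 or B9 replicate 2 or 3 (0.063 to 0.096). Sema3c, which acts on heart and vessel as well as axon growth, was lower in M5, at 381, 348 and 560.0, than in R5, at 1016, 2607 and 2288 (log2 change -2.11 ± 0.60, adjusted p = 0.0048). Sema3g was highest in B7, at 149, 182 and 184, against 27.1, 24.1 and 7.01 in R7 (log2 change 3.27 ± 0.55, adjusted p = 9.9e-05).

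The neuropilins, the binding subunits for class 3 semaphorins, differed from each other in M7 and M9. Nrp1 was higher and Nrp2 lower than in R of the same day. Nrp1 was at 3591, 6358 and 5419.7 in M7, against 1659, 2014 and 834 in R7. On day 9 it was at 1928, 4136 and 2088 in M9, against 667, 645 and 281 in R9. The groups did not overlap on either day (log2 change 1.82 ± 0.53, adjusted p = 0.0052 in M7 and log2 change 2.37 ± 0.53, adjusted p = 0.00041 in M9). Nrp2 was at 2633, 2423 and 2298 in M9 and 8377, 5363 and 5263 in B9, against 4688, 4521 and 3285 in R9. It was lower in M9 than in B9 (log2 change -1.34 ± 0.25, adjusted p = 7.3e-05). Its call in M9 over R9 (log2 change -0.75 ± 0.25, adjusted p = 0.013) was lost without R9 replicate 1 (adjusted p = 0.057). In M7 over R7 it passed although the groups overlapped (log2 change -0.70 ± 0.25, adjusted p = 0.022), and was lost without R7 replicate 1 or 2 or M7 replicate 1 (0.055 to 0.19). On day 5 neither neuropilin passed in M5 over R5 (log2 change 0.36 ± 0.53, adjusted p = 0.61 for Nrp1 and log2 change -0.18 ± 0.25, adjusted p = 0.59 for Nrp2).

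Of the plexins, Plxna4, a signalling partner of neuropilin, was higher in M than in R on all 4 days. It was at 2754, 711 and 842 in M4, with replicate 1 highest, against 81.6, 38.3 and 164 in R4. On day 5 it was at 1721, 2536 and 2741 in M5, against 62.8, 229 and 139 in R5. M7 held 536, 1209 and 1222, against 166, 326 and 33.02 in R7, and no M library of these days overlapped R. The change was 3.86 ± 0.73 (adjusted p = 0.00037) in M4 over R4, 4.17 ± 0.73 (adjusted p = 2.4e-05) in M5 over R5 and 2.91 ± 0.73 (adjusted p = 0.0015) in M7 over R7. In M9 over R9 it was 1.95 ± 0.73 (adjusted p = 0.025) and was lost without R9 replicate 3, M9 replicate 2 or M9 replicate 3 (adjusted p 0.067 to 0.14). Plxna1 was the most even plexin, between 6097 and 10398 over all 45 libraries, and was among the 6 highest guidance genes per kilobase in each of the 15 groups. Plxna2 was lower in M5, at 2022, 3141 and 4228, than in R5, at 6724, 8011 and 10335 (log2 change -1.46 ± 0.40, adjusted p = 0.0034). Plxnc1, the receptor of Sema7a, was also lower, at 60.7, 87.2 and 112 in M5 and 317, 391 and 509.6 in R5 (log2 change -2.23 ± 0.30, adjusted p = 5e-07). Plxnb3, the plexin for Sema5a, passed in B7 over R7 (log2 change 1.58 ± 0.49, adjusted p = 0.02), but not without R7 replicate 3, B7 replicate 1 or B7 replicate 3 (0.055 to 0.094). Its levels were low, with means of 1.12 in R5, 2.59 in R9 and 8.59 in B9, close to the 1 added before the log.

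Among the membrane-bound semaphorins, Sema5b (chr16:35541145-35664732, plus strand) was lower in M than in R on all 4 days. It was at 105, 104 and 144 in M5 and 508, 337 and 382 in B5, against 620.4, 993 and 1025 in R5. On day 9 it was at 260.0, 192 and 281 in M9 and 1309.9, 1523 and 1887 in B9, against 2332, 1985 and 1880.0 in R9. The change was -2.87 ± 0.29 (adjusted p = 1.9e-09) in M5 over R5, -3.17 ± 0.29 (adjusted p = 1.9e-10) in M7 over R7 and -3.09 ± 0.29 (adjusted p = 4.2e-10) in M9 over R9. On day 4 it was smaller, -0.93 ± 0.29 (adjusted p = 0.024), and was lost without R4 replicate 1 or 3 or M4 replicate 2 or 3 (adjusted p 0.069 to 0.17). Its relative Sema5a was higher on day 7, at 873, 1299 and 1831 in M7 against 314, 478 and 126 in R7 (log2 change 2.25 ± 0.39, adjusted p = 1.9e-05). Sema6a was likewise higher in M9, at 3805, 4638 and 3636, than in R9, at 1547, 1734 and 1158 (log2 change 1.46 ± 0.26, adjusted p = 3.3e-05).

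Sema7a, a membrane-anchored semaphorin that promotes axon growth, and Sema6b were higher with late BMP4 on day 7. Sema7a was at 198, 270.3 and 349 in B7, against 96.9, 102 and 82.3 in R7 (log2 change 1.50 ± 0.28, adjusted p = 0.0003). Sema6b was at 359, 519 and 548 in B7, against 188, 246 and 120.3 in R7 (log2 change 1.39 ± 0.30, adjusted p = 0.0017). Both were lower in M9 than in R9: Sema7a was at 93.3, 52.7 and 90.8 in M9 and 250.3, 246 and 242 in R9 (log2 change -1.67 ± 0.28, adjusted p = 9.1e-06). The change of Sema6b, -0.98 ± 0.30 (adjusted p = 0.0079), was lost without M9 replicate 2 (adjusted p = 0.079). On day 5 Sema6b was higher in M5 than in R5, with means of 264 and 118 (log2 change 1.18 ± 0.30, adjusted p = 0.002). Sema4f was lower in M5, M7 and M9 than in R of the same day, with changes of -0.98 ± 0.24 (adjusted p = 0.0013), -1.24 ± 0.24 (adjusted p = 8.6e-05) and -1.16 ± 0.24 (adjusted p = 0.00017). Sema4a was higher in M7, at 121, 79.4 and 65.9, than in R7, at 17.4, 13.9 and 16.02 (log2 change 2.38 ± 0.38, adjusted p = 6.9e-06). Sema4d, which binds plexin-B1, was lower in M7, at 409.7, 349 and 379.7, than in R7, at 921, 929 and 1359 (log2 change -1.47 ± 0.25, adjusted p = 1.4e-05). It was also lower in M9 than in R9 (log2 change -1.49 ± 0.25, adjusted p = 1.1e-05). Sema4b was lower in M9, at 504, 505 and 581, than in R9, at 1013, 848 and 1129 (log2 change -0.90 ± 0.16, adjusted p = 1.8e-05). Sema4c was higher in M9 than in B9, at 1471, 1975 and 1698 in M9 against 1119.5, 735 and 653 in B9 (log2 change 1.07 ± 0.30, adjusted p = 0.0039). Sema6d passed in none of the 16 comparisons, and Sema4g and Sema6c in 1 each, both lower in M9 than in B9; that of Sema6c was lost without B9 replicate 1 or M9 replicate 1 or 2 (adjusted p 0.059 to 0.076).

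**Figure D5:**
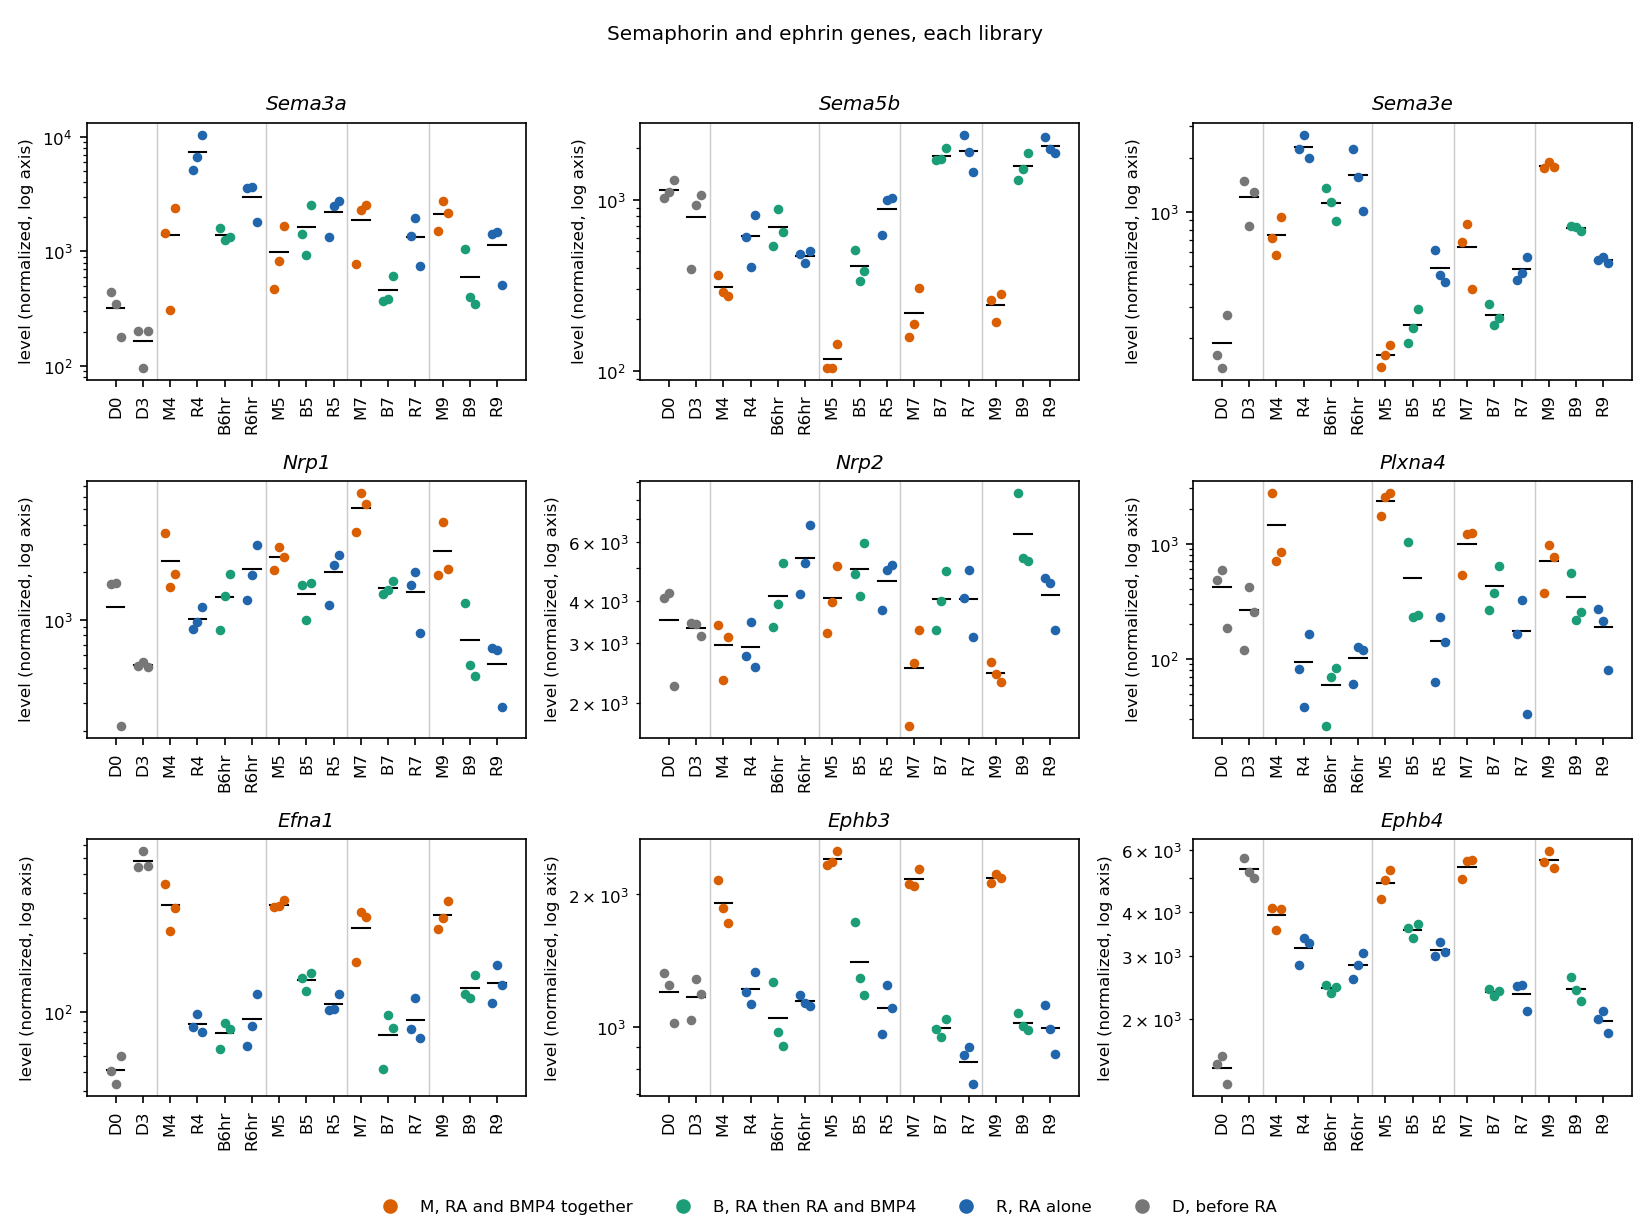
Levels of 9 semaphorin, neuropilin, plexin, ephrin and Eph genes in each library (points, log axis, no unit) by group, with a black line at the group mean. Sema3a peaks in R4, Sema5b is low and Plxna4, Efna1, Ephb3 and Ephb4 are high in the M groups, and Sema3e is lowest of the 3 treatments in M5 and highest in M9.

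The ephrin-A ligands, which sit on the membrane by a lipid anchor, were called higher in M9 over R9 in 5 of 5 cases, against 27.5% of all genes. In M5 over R5, 3 of 5 were called higher, against 21.0% of all genes. These were Efna1, Efna3 (chr3:89313899-89322965) and Efna4 (chr3:89333390-89338028), which lie close together on the minus strand. The 5 ligands are therefore not 5 unlinked genes. Efna5 was lower in M5 over R5 (log2 change -0.81 ± 0.33, adjusted p = 0.048). Efna1 (chr3:89271733-89281142, minus strand) was at 445, 258 and 337 in M4, against 84.01, 98.5 and 79.9 in R4 (log2 change 1.95 ± 0.24, adjusted p = 9.2e-07). On day 5 it was at 339, 343 and 369 in M5 and 148, 129 and 159 in B5, against 103, 104 and 124 in R5 (log2 change 1.66 ± 0.24, adjusted p = 1.4e-06 for M5 over R5). It was higher without overlap also in M7 and M9 (log2 change 1.52 ± 0.24, adjusted p = 4.9e-06 and log2 change 1.14 ± 0.24, adjusted p = 0.00023). Efna3 was at 526, 519 and 597 in M5, against 192, 225 and 228 in R5 (log2 change 1.34 ± 0.23, adjusted p = 1.4e-05). Efna4 was at 869.8, 1035 and 994 in M9, against 469, 580.4 and 491 in R9 (log2 change 0.91 ± 0.10, adjusted p = 9.4e-09). Efna2 was at 1069, 1437 and 1238 in M9, against 775, 819 and 687 in R9 (log2 change 0.71 ± 0.18, adjusted p = 0.0014). Of the exon bases of Efna3 14.1% and of Efna4 10.5% are shared with a gene on the opposite strand. Efna5, a repellent of many axons, was higher in M9 than in B9, at 1279, 1788 and 1127 in M9 against 792, 397 and 387 in B9 (log2 change 1.47 ± 0.33, adjusted p = 0.00061). Its call in M9 over R9 (log2 change 1.10 ± 0.33, adjusted p = 0.0067) was lost without R9 replicate 3 (adjusted p = 0.061).

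Of the ephrin-B ligands, which span the membrane, 0 of 3 passed in M9 over R9, where 51.0% of all genes did, with log2 changes of -0.26 to 0.35. Efnb1 was at 1342, 1751 and 2215 in M5 and 3835, 1971 and 4005 in B5, against 4994, 8421 and 9559 in R5. It was lower in M5 over R5 (log2 change -2.09 ± 0.35, adjusted p = 1.3e-05). Its call in B5 over R5 (log2 change -1.24 ± 0.35, adjusted p = 0.029) was lost without R5 replicate 2 or 3 or B5 replicate 2 (adjusted p 0.10 to 0.25). Per kilobase of exon, Efnb1 had the highest mean level of the guidance genes in R4, R5, R7 and R9, at 1282, 2218, 1653 and 1055. Efnb2 was at 3589, 4073 and 4519 in M5, 6459, 3556 and 4827 in B5 and 3226, 5979.9 and 5574 in R5, overlapping. Efnb3 passed in none of the 16 comparisons.

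EphB3 and EphB4, receptors for ephrin-B ligands, were higher in M than in R on all 4 days, and had the smallest SE of the 13 Eph receptors. Ephb3 (chr16:21204755-21223305, plus strand) was at 2153, 1860.3 and 1719 in M4, against 1200.0, 1125 and 1329.7 in R4. On day 5 it was at 2339, 2374 and 2513 in M5, against 962, 1246 and 1104 in R5. Day 9 levels were 2122, 2232 and 2183 in M9, against 1122, 985 and 865 in R9. The change was 0.65 ± 0.13 (adjusted p = 0.00055) in M4 over R4, 1.13 ± 0.13 (adjusted p = 1.6e-08) in M5 over R5, 1.38 ± 0.13 (adjusted p = 2.4e-10) in M7 over R7 and 1.14 ± 0.13 (adjusted p = 1.2e-08) in M9 over R9. Ephb4 (chr5:137350109-137378669, plus strand), known from veins, was at 4349, 4932 and 5262 in M5, against 2998, 3301 and 3090.0 in R5. On day 9 it was at 5533, 5964 and 5343 in M9, against 1997, 2096 and 1818 in R9. It rose by 0.63 ± 0.09 (adjusted p = 9.3e-07) in M5 over R5, 1.20 ± 0.09 (adjusted p = 2.4e-12) in M7 over R7 and 1.51 ± 0.09 (adjusted p = 2.1e-14) in M9 over R9. The call in M4 over R4 (log2 change 0.31 ± 0.09, adjusted p = 0.014) was lost without R4 replicate 1 or M4 replicate 1 or 3 (0.057 to 0.12). Ephb2 was higher in M9 than in R9, at 3511, 4525 and 3906 in M9 against 2765, 2701 and 1972 in R9 (log2 change 0.69 ± 0.20, adjusted p = 0.0047). Ephb6 was higher in M7, at 509, 756 and 684, than in B7, at 301, 321 and 405 (log2 change 0.91 ± 0.17, adjusted p = 5.4e-05). Ephb1 was lower in B7, at 64.3, 106 and 186, than in R7, at 403, 478 and 281 (log2 change -1.80 ± 0.49, adjusted p = 0.0091), though not without B7 replicate 1 (0.073).

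Of the EphA receptors, Epha1, Epha4 and Epha7 were higher in M on at least 1 day from day 7, and Epha5, Epha8 and Epha10 lower on day 5 or day 7. Epha1 was at 978, 833 and 1061 in M9 and 249.5, 495 and 481 in B9, against 173, 215 and 313 in R9, higher in M9 over R9 (log2 change 2.07 ± 0.44, adjusted p = 0.00025). Epha4, known in spinal locomotor circuits, was at 2940.3, 2401 and 3091 in M7, against 1794, 1786 and 1488 in R7 (log2 change 0.73 ± 0.19, adjusted p = 0.002). Epha5 was at 6.40, 11.1 and 31.1 in M5, against 128, 191 and 301 in R5 (log2 change -3.78 ± 0.61, adjusted p = 8.4e-06). Epha10, an Eph receptor thought to lack kinase activity, was at 13.3, 21.1 and 31.1 in M7, against 319, 221 and 194 in R7 (log2 change -3.47 ± 0.51, adjusted p = 1.5e-06). Both were lower. Epha8 was at 18.8, 20.5 and 26.9 in M5, against 51.98, 63.3 and 37.3 in R5 (log2 change -1.15 ± 0.30, adjusted p = 0.0021). Epha7 was at 1542, 2706 and 1709 in M9, against 811, 714 and 379.6 in R9, higher (log2 change 1.67 ± 0.36, adjusted p = 0.00028). Epha3 was spread over 789, 889 and 52.98 in R7 and 103, 1321 and 972 in R5, and passed in no comparison of M or B with R. The mesenchyme list was at 35917 to 57334 in M7 and 3261 to 17290.4 in R7 and at 19018 to 36927 in M9 and 4383 to 9612 in R9 beside these differences, and its part in the ephrin and Eph levels was not tested.

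Before any RA was given, neuromesodermal progenitors already differed from mESCs, mostly by higher guidance genes. In D3 over D0, 30 were higher and 4 lower (52.3% of 65). Of all genes 54.9% were called, 30.9% higher and 24.0% lower, so the share of guidance genes was near that of the table. The higher calls included 8 of 13 Eph receptors and 5 of 5 ephrin-A ligands, of which Efna1, Efna3 and Efna4 lie close together on 1 chromosome. Of the ligands, Efna2 and Efna5 were lost without D0 replicate 3 and in a fit of the 6 libraries alone (adjusted p 0.15 and 0.10 in that fit). Sema6a, a membrane-bound plexin-A ligand, was at 13247, 8069 and 9158 in D3, against 199, 198 and 214 in D0 (log2 change 5.60 ± 0.26, adjusted p = 1.5e-17). Epha5 was at 698, 549 and 1069.7 in D3, against 5.20, 4.33 and 5.42 in D0 (log2 change 6.96 ± 0.61, adjusted p = 3e-11). Epha1 was at 3607, 2051 and 2307 in D3, against 63.8, 48.2 and 315 in D0 (log2 change 4.68 ± 0.44, adjusted p = 1.2e-10). Slit3 and Ephb4 rose as well (log2 change 3.27 ± 0.28, adjusted p = 1.3e-11 and log2 change 1.87 ± 0.09, adjusted p = 1.5e-17). Lower in D3 were Robo4, at 14.6, 74.1 and 132 in D3 against 460.1, 434 and 502 in D0 (log2 change -3.11 ± 0.60, adjusted p = 5.3e-05) and Sema4b (log2 change -1.39 ± 0.16, adjusted p = 4.9e-09). Without D0 replicate 3, which held high Pou5f1, 31 were called, and without D3 replicate 1 35. Dcc was at 85.2, 1128 and 2334 in D3 and 219.8, 206 and 66.2 in D0, and Robo3 at 24.8, 1066 and 1399.9 in D3 and 269, 274 and 277 in D0. Both were low in D3 replicate 1 alone among the D3 libraries, as Tubb3 was, and did not pass (log2 change 2.07 ± 1.01, adjusted p = 0.082 and log2 change 0.30 ± 1.22, adjusted p = 0.85).

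The first day of RA was followed by more lower than higher calls. In R4 over D3, 4 were higher and 17 lower (32.3% of 65). Of all genes 24.3% were called, 11.7% higher and 12.6% lower. With D3 replicate 1 left out, 5 were higher and 22 lower. Slit3 was at 889, 943 and 922 in R4, against 4749, 8072 and 6941 in D3 (log2 change -2.81 ± 0.28, adjusted p = 3.1e-09). Efna1 was at 84.01, 98.5 and 79.9 in R4, against 545, 653 and 549 in D3 (log2 change -2.72 ± 0.24, adjusted p = 3.2e-10). Epha2 was at 861, 549 and 677 in R4, against 2677, 5680.5 and 6839.8 in D3 (log2 change -2.78 ± 0.43, adjusted p = 1e-05). None of the 3 overlapped. Beside Sema3a, Efnb2 was higher, at 3661, 3908 and 4493 in R4 and 1451, 1950.1 and 1606 in D3 (log2 change 1.27 ± 0.36, adjusted p = 0.0092). Sema3e and Ntn1 passed, but not without 1 of the libraries. Sema3e (log2 change 0.96 ± 0.27, adjusted p = 0.0076) was lost without D3 replicate 2 (adjusted p = 0.088). Ntn1 (log2 change 0.94 ± 0.32, adjusted p = 0.027) was lost without D3 replicate 3 or R4 replicate 2 (0.088 and 0.13). These comparisons share the D3 libraries with D3 over D0.

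Between day 5 and day 9, guidance genes were compared within each treatment. In R9 over R5, 13 were higher and 17 lower (46.2% of 65). Of all genes 39.1% were called, 17.7% higher and 21.5% lower. In B9 over B5, 22 were higher and 16 lower (58.5% of 65). Of all genes 43.7% were called, 20.4% higher and 23.2% lower. In M9 over M5, 13 were higher and 3 lower (24.6% of 65). Of all genes 25.8% were called, 14.4% higher and 11.4% lower. B9 over B5 had 25 calls without B5 replicate 3 and 34 without B5 replicate 1. Sema7a was higher in B9, at 306, 469 and 415, than in B5, at 63.3, 24.03 and 35.3 (log2 change 3.33 ± 0.28, adjusted p = 6.4e-10). Robo3 was higher in B9 than in B5 (log2 change 4.56 ± 1.22, adjusted p = 0.0033). In R9 over R5, Sema7a was higher (log2 change 2.23 ± 0.28, adjusted p = 5.7e-07). Unc5a, Unc5c and Nrp1 were lower there, by log2 changes of -2.58 ± 0.46 (adjusted p = 6e-05), -3.01 ± 0.82 (adjusted p = 0.0043) and -1.96 ± 0.53 (adjusted p = 0.0039) in that order. In M9 over M5, Sema3e and Sema6a were higher (log2 change 3.48 ± 0.27, adjusted p = 9.7e-11 and log2 change 2.17 ± 0.26, adjusted p = 2.6e-07), as were Epha5 (3.88 ± 0.61, adjusted p = 1.6e-05) and Ntn1 (1.43 ± 0.32, adjusted p = 0.001).

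The difference between the courses was tested as an interaction. For M against R, 24 guidance genes passed, 19 with a more positive and 5 with a more negative course in M (36.9%, near the 38.9% of all genes). After quantile normalization, which shifted the median of all genes by over 0.1, 17 were more positive and 8 more negative. Sema3e had the smallest adjusted p: its change was 3.48 ± 0.27 (adjusted p = 9.7e-11) in M9 over M5 and 0.16 ± 0.27 (adjusted p = 0.67) in R9 over R5, a difference of 3.32 ± 0.38 (adjusted p = 9.7e-08). Sema3d differed by 4.95 ± 0.98 (adjusted p = 0.00022), Epha5 by 3.88 ± 0.87 (adjusted p = 0.00078) and Unc5a by 2.64 ± 0.64 (adjusted p = 0.0018). Robo4 differed in the other direction, by -4.98 ± 0.86 (adjusted p = 3.9e-05). It was lower in M9 than in M5 (-2.38 ± 0.60, adjusted p = 0.0036) and higher in R9 than in R5 (2.60 ± 0.60, adjusted p = 0.0011). For B against R only Sema3e passed (1.54% of 65, against 2.11% of all genes; 2 genes without R5 replicate 1 or B5 replicate 1), with a difference of 1.65 ± 0.38 (adjusted p = 0.014).

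Genes that act downstream of these receptors and the adhesion molecules of axons were read from a pair of lists. Of 52 effectors and co-receptors, 48 are in the table. In M5 over R5, 4 of them were higher and 25 lower (60.4%), against 21.0% of all genes higher and 23.3% lower. In M7 over R7, 11 were higher and 20 lower (64.6%), against 22.9% of all genes higher and 20.6% lower. Dpysl5, a collapsin response mediator of growth cones, was lower in M5 over R5 (-4.10 ± 0.24, adjusted p = 3.3e-14) and M7 over R7 (-2.88 ± 0.24, adjusted p = 4.6e-11). The hedgehog co-receptor Boc was lower in M5 over R5 (-3.44 ± 0.38, adjusted p = 1.4e-08). Mical1, an enzyme that disassembles actin downstream of plexins, was higher in both (1.31 ± 0.14, adjusted p = 4.6e-09 and 1.29 ± 0.14, adjusted p = 5.2e-09). In B5 over R5, 2 were higher and 9 lower (22.9%, against 5.99% of all genes), with Gap43, a growth cone protein, lower (-2.03 ± 0.25, adjusted p = 1.2e-05). Of 18 axon adhesion molecules, all in the table, 3 were higher and 7 lower in M5 over R5 (55.6%, against 44.3% of all genes). In B7 over R7, 4 were higher and 1 lower (27.8%, near the 23.7% of all genes), and L1cam was among those higher (2.02 ± 0.52, adjusted p = 0.0063). In M5 over R5 the median log2 change was -0.55 for the effectors, -0.02 for the adhesion molecules and -0.02 for all genes.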

How the data were processed

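RNA of 45 cultures of differentiating mESCs was sequenced with the NuGEN Universal Plus mRNA kit, at a stated 30000000 reads per sample, per the labels' protocols. Picard, edgeR and mm10 are named without role in the submitters' processing notes; no label or header names an aligner, counter or annotation, or says whether strand was used. Per library, the authors' file holds a normalized level, treated as a signal. It is not in whole reads, so depth is unknown, and a library sums to 12245725 to 15868724. The authors also deposited columns headed FPKM and rank, which were treated as a score, made in a way the file headers do not state, and not used. For 12 comparisons the authors deposited a log2 fold change and a p-value with a false discovery rate, and every row has a rate under 0.1 in at least 1.

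The test was limma 3.58.1 (R 4.3.3; empirical Bayes with a mean trend, robust) on log2(level + 1) over all 15 groups in 1 fit, with Benjamini-Hochberg adjustment over 11220 genes; the fit was tested on simulated data. A filter (level of at least 1 in 3 libraries) removed 0 genes. With 3 libraries a group, an exact permutation test of 1 gene could not go below 0.1. Tables and figures used Python 3.11.15, pandas 2.3.3, numpy 2.4.6 and matplotlib 3.10.9. No libraries were identical. The study's design describes 3 independent differentiations. Same-numbered libraries deviated together in all 3 pairs (correlations of deviations from group means over 0.1) only in B6hr with R6hr (0.586, 0.189 and 0.465); the pairing comes from the data, not the labels. Alternatives were other pseudocounts, no filter, quantile normalization, the compared libraries alone, a replicate block, a threshold of 0.01, the authors' deposited test and each library left out; the block within the 6 h groups alone and their replicates 2 and 3 alone were added after seeing the data. Members were matched by symbol, 64 of 65 to GENCODE M21 and 55 to RefSeq promoter windows. Members and lists were chosen with earlier results of these data known. Per comparison, up to 8 called members each way with the smallest adjusted p, a set of classical guidance genes and the 4 leading genes of each list could be named; other members and comparisons were chosen after their values were seen.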

Additional observations from a re-analysis of the deposited data

Results flagged for a closer look

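By the interaction test (limma, Benjamini-Hochberg adjusted p under 0.05), the courses from day 5 to day 9 of 24 guidance genes differed between M and R. These were 36.9% of the 65, near the 38.9% of all genes. Each is given as the log2 change of M9 over M5 minus that of R9 over R5. A more positive course in M was found for Sema3d by 4.95, Epha5 by 3.88, Sema3e by 3.32, Unc5a by 2.64, Robo2 by 2.54, Sema3a by 2.30, Sema6a by 2.29, Epha7 by 2.27, Sema3c by 2.25, Nrp1 by 2.01, Efnb1 by 1.98, Efna5 by 1.91, Ntn5 by 1.85, Plxnc1 by 1.63, Ntn3 by 1.24, Sema4c by 1.12, Ephb4 by 0.88, Efna2 by 0.80 and Efna4 by 0.51. A more negative course was found for Robo4 at -4.98, Sema6b at -2.16, Sema7a at -1.48, Slit3 at -1.48 and Sema4b at -1.29.

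Unc5a changed by 0.06 in M9 over M5 and by -2.58 in R9 over R5, whereas Epha5 changed by 3.88 in M9 over M5 and by 0.00 in R9 over R5. Sema3d, Robo4 and Sema6b passed in opposite directions in M9 over M5 and in R9 over R5. The calls in M9 over M5 were each lost without any 1 of 4 libraries for Sema3d (adjusted p 0.052 to 0.089) and Sema6b (0.064 to 0.21). The calls of Robo2, Sema3a, Sema3c, Nrp1, Ntn5, Ntn3 and Sema4c were each lost without R5 replicate 3, M5 replicate 1 or R9 replicate 3, among others (adjusted p up to 0.14).

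For B against R, the course of Sema3e differed by 1.65, with levels higher in B9 than in B5 in all 3 libraries. Groups of 3 are too small for a test of single outlying libraries.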

How the results depend on the processing

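Of 425 guidance gene calls over all comparisons, 0 reversed. Of these calls, 278 stayed past the threshold under every other setting that covered them, apart from the stricter threshold of 0.01. The compared libraries alone lost 65, quantile normalization 20, a replicate block over all libraries 9, a pseudocount of 0.1 3 and a pseudocount of 5 1. The authors' deposited test lost 11 and kept 140. It covers no comparison of M with R after day 4. It also covers none with D0 or D3 and none from day 5 to day 9, so those calls could not be checked against it. Leaving out 1 library lost 439 of 2700. Counts moved as follows. With the compared libraries alone, M4 over R4 had 7 calls, B5 over R5 3, M9 over M5 26 and the B interaction 2; B6hr over R6hr had 10, and 30 with a replicate block in that fit, but 0 with the block over all libraries. In no other comparison did all 3 same-numbered pairs deviate together. Some did, as replicates 1 and 3 of M7 with B7 (0.608 and 0.538), and in B7 with R7 all 3 went against each other (-0.532 to -0.209). The block over all libraries moved no count by more than 1.5 times. It fits the same replicate effect in all 15 groups, so it cannot show whether other comparisons were paired. At an adjusted p under 0.01, B5 over R5 had 4, M5 over B5 10, B7 over R7 10, B9 over R9 1, B9 over B5 24, M9 over M5 8 and the B interaction 0. Quantile normalization gave 2 in the B interaction, and moved the median log2 change of all genes to -0.05 from 0.07 in D3 over D0 and to -0.03 from 0.09 in the M interaction. With 1 library left out, the counts ranged from 4 to 11 in B5 over R5, 10 to 17 in M5 over B5, 10 to 16 in B7 over R7, 2 to 5 in B9 over R9, 25 to 34 in B9 over B5 and 1 to 2 in the B interaction. A stricter threshold lowers the number of calls by construction; fits of fewer libraries moved counts both ways, and the cause of these and the other shifts was not tested. Depth is unknown, so no counting interval could be given.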

Other observations

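In the 6 h groups, several guidance genes followed the replicate number. Unc5b was at 896, 2924 and 4638 in B6hr and 946, 2765 and 5367 in R6hr, in the same order of libraries in both groups. Ntn1 was at 8295, 4301 and 2627 in B6hr and 5224, 4166 and 2495 in R6hr, and Nrp1 at 869, 1409 and 1943 in B6hr and 1339, 1929.9 and 2992 in R6hr. Robo2 was at 374, 370.4 and 374 in B6hr, against 1417, 1608 and 923 in R6hr, below every R6hr library (log2 change -1.78 ± 0.71, adjusted p = 0.19). Sema4c and Sema3a were also below every R6hr library. Sema4c was at 950.1, 915 and 1039 in B6hr and 1641, 1743 and 1725 in R6hr (log2 change -0.82 ± 0.30, adjusted p = 0.16), and Sema3a at 1591, 1262 and 1325 in B6hr and 3613, 3617 and 1806 in R6hr (log2 change -1.05 ± 0.60, adjusted p = 0.33). In the fit over all libraries none of these passed. In a fit of the 6 libraries alone, Robo2 (adjusted p = 0.01) and Sema4c (adjusted p = 0.0065) passed and Sema3a did not (adjusted p = 0.081). With the replicate number as a block in that fit, Robo2, Sema4c, Sema3a and Nrp1 passed as lower in B6hr (adjusted p = 0.00087, 0.00029, 0.038 and 0.0007), and Unc5b and Ntn1 did not (adjusted p = 0.48 and 0.22).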
